A study of Saccharomyces cerevisiae with 4 samples.

Results

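The comparison sets the 2 arrays titled biological replicate 2 against the 2 titled biological replicate 1 in a study of the budding yeast Saccharomyces cerevisiae, with genotype as a block. It uses all 4 arrays of the series, 1 wild type and 1 dis3E729K culture on each side, and 5498 of the 10928 probe sets in the deposited table, those tied to exactly 1 S. cerevisiae gene. DIS3 encodes the ribonuclease of the RNA exosome, and dis3E729K is a missense allele of it. By the labels, all 4 cultures have the BY4741 background, a standard haploid laboratory strain, and wild type and mutant alike have a URA3 marker next to DIS3. Cells grew at 30 °C in drop-out medium that selects for the DIS3 allele and were collected in mid-log phase. Total RNA was amplified, labelled with biotin and hybridised to one-colour Affymetrix arrays, and the deposited values are log2 intensities made with RMA, a method that adjusts background, equalises the arrays' distributions and combines the probes of a set. The labels do not say whether replicates 1 and 2 are the same strain or clone.

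Haploid budding yeast comes in 2 mating types, a and α, set by the allele at the MAT locus on chromosome III. In α cells the MAT locus makes α1, which with Mcm1 activates α-specific genes, and α2, which with Mcm1, Tup1 and Cyc8 represses a-specific genes. In a cells neither is made, so a-specific genes are on by default and α-specific genes are off. Each type secretes its own peptide pheromone and carries the receptor for the other's. Pheromone acts through a G protein and a kinase cascade that arrests the cell cycle and, through the transcription factor Ste12, turns on genes for mating. Silent copies of the α and a genes lie at HML and HMR on the same chromosome and share sequence with MAT, so probe sets named HMLALPHA1 and HMRA1 cannot separate a silent copy from an active MAT copy.

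A gene was said to follow replicate number when both replicate 2 arrays fell to 1 side of the 2 replicate 1 arrays and the difference was at least 1 log2 unit in each genotype. By this rule of size, which has no test, 12 genes were higher in replicate 2 (0.218% of probe sets) and 9 were lower (0.164%), 21 in all (0.382%). Most belonged to the mating type programme. A second rule took genes that set a single culture apart, with 1 array at least 1 log2 unit from the nearest of the other 3 and by over 2 times the range of those 3. It took 52 genes, 22 of them for wild type replicate 2 and 25 for dis3E729K replicate 2. In limma's test across all 5498 probe sets, with a Benjamini-Hochberg adjusted p under 0.05, 5 genes were higher in replicate 2 (0.0909%) and 6 were lower (0.109%), and all 11 also followed replicate number. At an unadjusted p below 0.05 there were 95 higher (1.73%) and 44 lower (0.8%), 139 in all (2.53%).

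The labels were checked first, because 2 arrays go against them. BY4741 is known as a MATa strain, yet both replicate 2 arrays carried α-specific transcripts at high level and had a1, the transcript of MATa, below background. The background level, the 95th percentile of probe sets for another yeast species on the same array, lay between 4.08 and 4.14 log2 units, and 98.5% to 98.7% of the S. cerevisiae probe sets lay above it. A second departure concerns wild type replicate 2 alone. MET17, a sulfhydrylase gene of methionine synthesis that BY4741 is known to lack, read 3.22 in wild type replicate 1, 9.55 in wild type replicate 2, 3.37 in dis3E729K replicate 1 and 3.47 in dis3E729K replicate 2. It was below background on 3 arrays, and wild type replicate 2 was at least 43.4-fold over them, a bound set by the background level. LEU2, also deleted in BY4741, read 4.56, 4.58, 4.26 and 4.51 in the same order, close to background on all 4 arrays. LYS2, present in BY4741 and deleted in its MATα partner strain, read 12.07, 12.05, 11.54 and 11.26, and URA3 read 11.36, 11.38, 11.22 and 10.89. HIS3, which carries a partial deletion in BY4741, read 10.49 to 11.57, and where its probes lie relative to that deletion was not examined. Of the other markers listed, ADE2 read 10.72, 11.46, 11.60 and 11.25 in the same order, CAN1 10.73 to 11.15 and LYP1 12.41 to 12.56. DIS3 itself read 11.65, 11.82, 11.49 and 11.12, a replicate difference of -0.10 ± 0.23 (SE). Strain, culture and replicate number cannot be told apart in these labels.

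The mating type loci gave the sharpest split. HMRA1 (YCR097W, chromosome III), which encodes a1, read 9.89 in wild type replicate 1 and 9.81 in dis3E729K replicate 1, against 3.37 in wild type replicate 2 and 3.94 in dis3E729K replicate 2. Both replicate 2 values were below background, so replicate 1 was at least 53.7-fold higher, with a limma adjusted p of 0.00667. HMLALPHA1 (YCL066W, chromosome III), which encodes α1, did the opposite: 3.53 and 3.51 in the wild type and dis3E729K replicate 1 arrays, and 10.56 and 10.74 in the corresponding replicate 2 arrays. Replicate 1 was below background here, replicate 2 was at least 93.0-fold higher, and the limma adjusted p was 0.00187. The identifier of the HMLALPHA1 probe set marks possible cross-hybridisation. HMRA2, whose sequence is shared in part with the α2 genes and whose probe set is marked likewise, read 10.29 and 10.34 on the replicate 1 arrays and 11.02 and 11.44 on the replicate 2 arrays, a difference of 0.92 ± 0.21 that did not pass (limma adjusted p = 1). HMLALPHA2, MATALPHA1 and MATALPHA2 had no probe set here.

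All 7 a-specific genes followed replicate number, lower in replicate 2, and 4 of them passed the test. MFA2 (YNL145W, chromosome XIV), an a-factor pheromone gene, read 13.00 in wild type replicate 1, 5.86 in wild type replicate 2, 12.85 in dis3E729K replicate 1 and 5.57 in dis3E729K replicate 2. The replicate 1 arrays lay more than 6 log2 units above the replicate 2 arrays in both genotypes. The fall was 148-fold, with a log2 difference of -7.21 ± 0.19 and a limma adjusted p of 0.00187. MFA1, the other a-factor gene, read 11.06, 7.54, 12.29 and 6.83 in the same order. Its pairs differed in size, -3.52 in wild type and -5.46 in dis3E729K, and the mean of -4.49 ± 0.49 did not pass (limma adjusted p = 0.158). STE6 (YKL209C, chromosome XI), the transporter that exports a-factor, read 11.37, 7.72, 11.36 and 8.27, a 10.3-fold fall with a limma adjusted p of 0.0363. It stayed well above the background level on both replicate 2 arrays.

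STE2 (YFL026W, chromosome VI), the receptor for α-factor, read 12.26 in wild type replicate 1, 7.01 in wild type replicate 2, 12.58 in dis3E729K replicate 1 and 6.81 in dis3E729K replicate 2. The fall was 45.7-fold (-5.51 ± 0.22, limma adjusted p = 0.00667), and the replicates of different number were separated by far more than the genotypes. BAR1, a secreted protease that degrades α-factor, read 10.18, 6.64, 10.20 and 5.46, and its difference of -4.14 ± 0.34 missed the threshold (limma adjusted p = 0.0636). AGA2 (YGL032C, chromosome VII), the adhesive subunit of a-agglutinin, read 10.24, 5.66, 10.52 and 4.49. It fell 39.5-fold, with a limma adjusted p of 0.046. ASG7, which dampens G protein signalling in mated cells, read 7.62, 5.64, 7.94 and 5.61, a difference of -2.16 ± 0.20 (limma adjusted p = 0.0979). The a-specific median was -4.49 over the 7 genes, -3.65 in the wild type pair and -5.46 in the dis3E729K pair, beside -0.01 over all 5449 genes. These genes were not at background on the replicate 2 arrays: all 7 lay above it, with a median of 6.64 in wild type and 5.61 in dis3E729K. Since RNA was pooled from whole cultures, fewer a cells and less a-specific RNA per cell cannot be told apart.

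All 5 α-specific genes were higher in replicate 2 in both genotypes, and 4 passed. MF(ALPHA)1 (YPL187W, chromosome XVI), the main α-factor pheromone gene, read 4.95 in wild type replicate 1, 13.91 in wild type replicate 2, 4.72 in dis3E729K replicate 1 and 13.66 in dis3E729K replicate 2. Its rise of 8.96 ± 0.19 log2 units, 496-fold, had the smallest adjusted p in limma's fit, 0.00177, and was near equal in the wild type and mutant pairs, at 8.97 and 8.94. MF(ALPHA)2, the second α-factor gene, read 5.66, 12.92, 5.76 and 10.57. The wild type culture exceeded the mutant one in replicate 2 by more than 2 log2 units, and the mean difference of 6.03 ± 0.61 did not pass (limma adjusted p = 0.124). STE3 (YKL178C, chromosome XI), the receptor for a-factor, read 7.88, 12.09, 7.01 and 11.81, a 22.7-fold rise (limma adjusted p = 0.0169). SAG1 (YJR004C, chromosome X), which encodes α-agglutinin, read 9.37, 13.39, 9.17 and 12.52, a 12.8-fold rise (limma adjusted p = 0.0363). AFB1 (YLR040C, chromosome XII), the a-factor barrier protein, read 8.19, 12.57, 8.57 and 11.998, a rise of 3.91 ± 0.29 log2 units (limma adjusted p = 0.046). The α-specific median was 4.51, with 4.38 in the wild type pair and 4.80 in the dis3E729K pair. All 5 genes also lay above background on the replicate 1 arrays, at 4.72 to 9.37, where α1 did not.

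**Figure D1:**
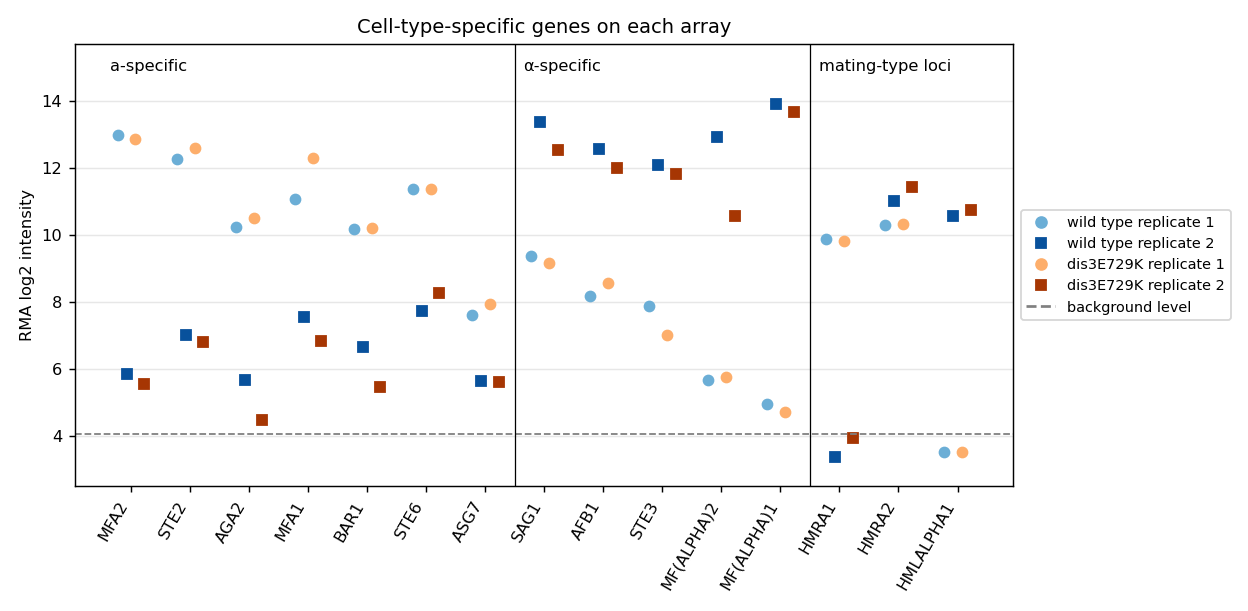
RMA log2 intensity (vertical axis) of the a-specific genes, the α-specific genes and the mating type loci on each of the 4 arrays, 1 point per array, with the background level dashed. Circles (replicate 1) and squares (replicate 2) separate for every gene in both genotypes: MFA2 lies at 13.00 and 12.85 against 5.86 and 5.57, MF(ALPHA)1 at 4.95 and 4.72 against 13.91 and 13.66, and HMRA2 shows the smallest gap.

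The 11th gene past the threshold was YNL146C-A, an open reading frame with no role given here, which read 7.98, 4.59, 8.17 and 4.12 in wild type replicates 1 and 2 and dis3E729K replicates 1 and 2. Its difference was -3.72 ± 0.24 (limma adjusted p = 0.0363). By its locus tag it neighbours MFA2 (YNL145W) on chromosome XIV, and whether its probes also read RNA from MFA2 was not tested.

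The test rests on 4 arrays and 1 residual degree of freedom, so single arrays decide it. Without the genotype block 2 genes were higher and 3 lower, HMLALPHA1, MF(ALPHA)1, HMRA1, MFA2 and STE2. With an array left out as well, 1 array stands against 2, and the spread comes from the side with 2 arrays alone. Then 0 genes passed without wild type replicate 1 and 0 without dis3E729K replicate 1, with 20 and 25 at an unadjusted p below 0.05 in limma's test. Without wild type replicate 2, 3 passed (HMLALPHA1, MF(ALPHA)1 and MFA2), and without dis3E729K replicate 2, 6 passed, MET17 and MF(ALPHA)2 among them. In that last fit wild type replicate 2 is the only replicate 2 culture, so MET17 describes a single culture there.

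The remaining genes that followed replicate number were 3 pheromone-induced genes, a retrotransposon and a subtelomeric gene, and none of them passed. FUS1, a membrane protein of cell fusion, read 7.19 in wild type replicate 1, 10.17 in wild type replicate 2, 8.21 in dis3E729K replicate 1 and 10.26 in dis3E729K replicate 2 (2.52 ± 0.29, limma adjusted p = 0.174). PRM1, which acts in plasma membrane fusion, read 6.06, 8.45, 6.13 and 8.26 (2.26 ± 0.20, limma adjusted p = 0.074). AGA1, the anchor subunit of a-agglutinin, which pheromone induces in both mating types, read 9.08, 11.37, 9.42 and 11.20 (2.04 ± 0.22, limma adjusted p = 0.157). For each of the 3 the replicate 2 arrays lay at least 1.5 log2 units above both replicate 1 arrays.

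Ty3, a retrotransposon whose transcription is known to respond to pheromone, was read by YGR109W-A and YGR109W-B. YGR109W-A, its gag gene, read 6.63, 10.75, 7.40 and 9.33 in wild type replicates 1 and 2 and dis3E729K replicates 1 and 2, on a probe set marked for cross-hybridisation. YGR109W-B, its polymerase reading frame, read 7.96, 9.59, 8.16 and 9.18. Neither passed (limma adjusted p = 0.896 for each). COS12, of a subtelomeric family of membrane proteins, read 4.65, 5.84, 3.90 and 4.95. Its value in dis3E729K replicate 1 was below that array's background, and measured from the background level the mutant pair differed by 0.87, under the 1 log2 unit of the rule. YMR206W and DSF1 reached 1 log2 unit in both genotypes too, but overlapped between replicates, since the mutant arrays read higher for both genes. Just under the threshold lay SPL2 and YAT1 among higher genes and CNS1, MIG2 and TRM7 among lower ones, with smaller-pair differences of 0.98, 0.97, -0.81, -0.76 and -0.71. CSM4 also lay there, but was below background on 3 arrays.

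**Figure D2:**
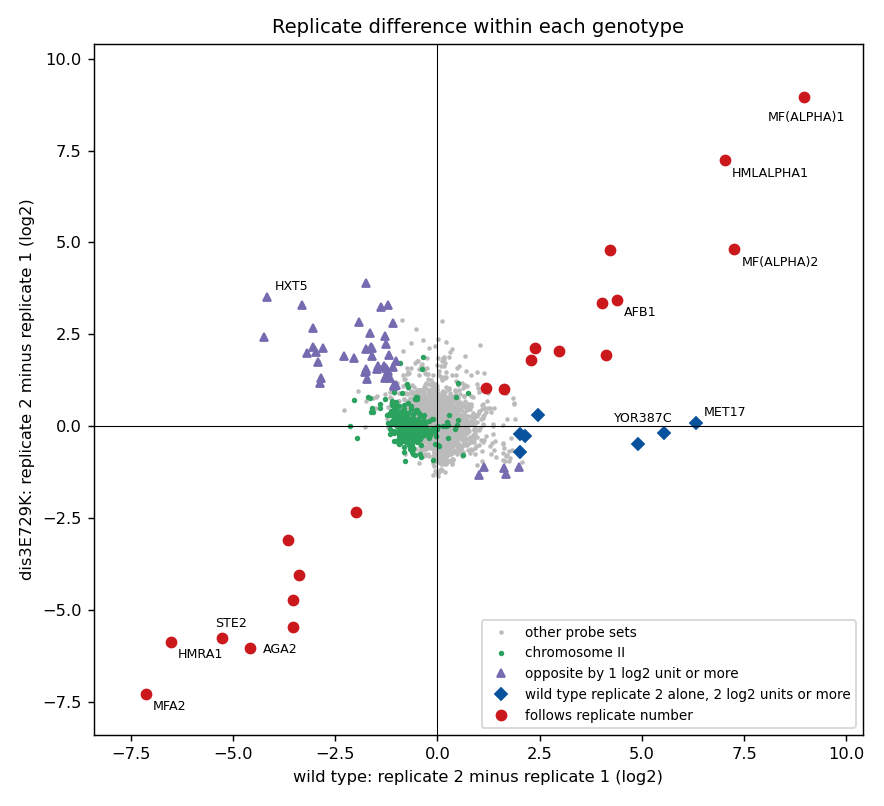
Replicate 2 minus replicate 1 in the wild type pair (horizontal axis, log2) against the same difference in the dis3E729K pair (vertical axis, log2), 1 point per probe set. Genes that follow replicate number (red) run from MFA2 at -7.14 and -7.28 to MF(ALPHA)1 at 8.97 and 8.94, MET17 and YOR387C (blue) differ in the wild type pair alone, chromosome II (green) sits left of zero, and purple marks the 48 genes that differ by at least 1 log2 unit in opposite directions.

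Pheromone-induced genes as a group leaned upward in replicate 2. Of 28 measured, 0 passed limma's test and 10 were higher and 1 lower at an unadjusted p below 0.05, where 1.73% and 0.8% of all probe sets were. The replicate 2 arrays lay above both replicate 1 arrays for 13 of the 28, against 6.48% of all probe sets, and below them for 1 of 28, ASG7, against 5.09%. The median difference was 0.50, with 0.36 in the wild type pair and 0.47 in the dis3E729K pair. The members with the largest differences after FUS1, PRM1, ASG7 and AGA1 were PRM6 and SST2. PRM6 read 4.91, 6.76, 5.06 and 5.82 in wild type replicates 1 and 2 and dis3E729K replicates 1 and 2. SST2, which switches off the pheromone G protein, read 9.39, 11.30, 10.14 and 10.33, so it was raised in wild type replicate 2 and differed by 0.19 in the mutant pair. FAR1, which arrests the cell cycle, read 10.96, 11.96, 9.61 and 9.95. TEC1, a transcription factor of filamentous growth, differed by 0.83 ± 0.25, FUS3, the mating kinase, by 0.29 ± 0.19 and KAR3, a nuclear fusion motor, by -0.16 ± 0.19. Apart from ASG7, which is also an a-specific gene, these genes respond to pheromone in either mating type. No pheromone treatment is named in the labels.

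**Figure D3:**
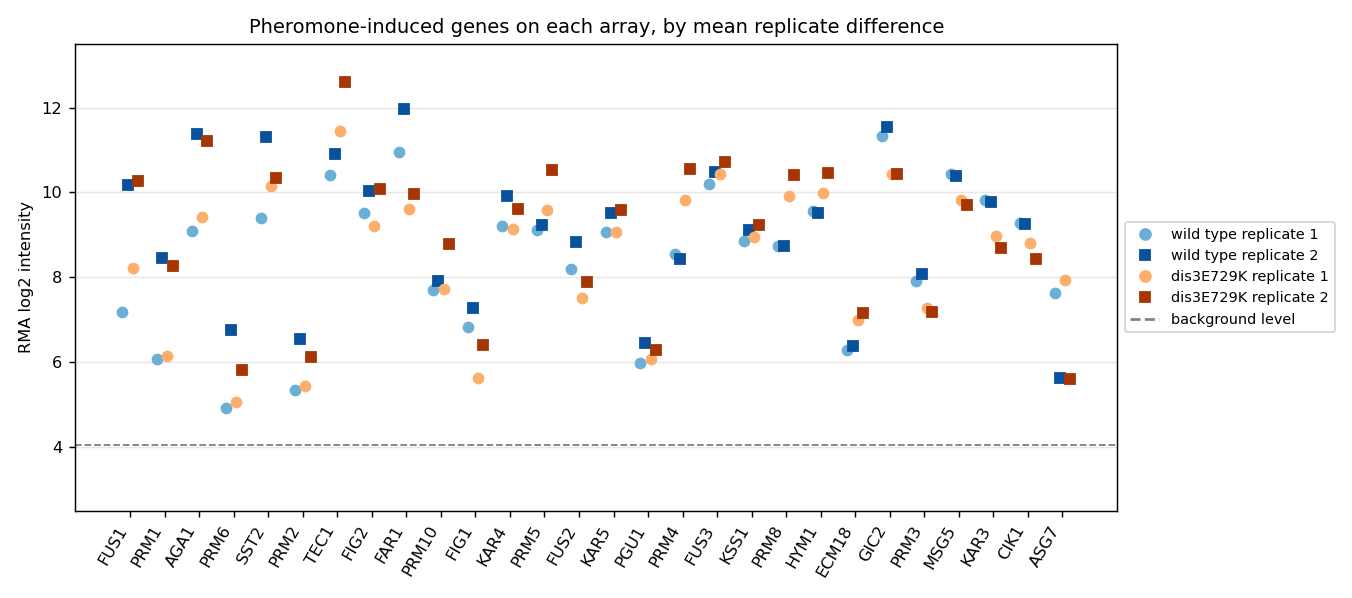
RMA log2 intensity (vertical axis) of the 28 pheromone-induced genes on each of the 4 arrays, ordered by mean replicate difference. Replicate 2 (squares) exceeds replicate 1 (circles) by at least 1.5 log2 units in both genotypes for FUS1, PRM1 and AGA1 at the left, most genes in the middle differ by less than 1 unit, and ASG7 at the right, also an a-specific gene, is reversed.

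For the machinery that both mating types share, single genes did not pass. Of 22 genes of the pheromone pathway 0 passed limma's test, with 1 at an unadjusted p below 0.05, and their median difference was 0.03. The replicate 2 arrays lay above both replicate 1 arrays for 5 of the 22, against 6.48% of all probe sets. They lay below them for 0, against 5.09%. GPA1, the G protein α subunit, read 10.80, 11.61, 10.50 and 10.79 in wild type replicates 1 and 2 and dis3E729K replicates 1 and 2, and STE4, the β subunit, read 11.34, 11.80, 11.84 and 11.78. STE12 read 10.79, 11.13, 10.23 and 10.07, and MCM1 read 10.83, 11.04, 11.35 and 11.17. Of 9 genes that process pheromone precursors 0 passed, with 0 at an unadjusted p below 0.05 (median 0.07). RAM1, a farnesyltransferase subunit, showed the largest difference among them, 0.28 ± 0.19. Of 14 genes for silencing of HML and HMR and for mating type switching 0 passed, likewise with 0 unadjusted (median 0.02), and SIR2, the silencing deacetylase, read 10.18, 10.54, 9.06 and 9.29.

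Markers of haploid and of meiotic diploid cells did not pass either. Haploid-specific genes, which the a1-α2 repressor turns off in diploids, were expressed on all 4 arrays: RME1, a repressor of meiosis, read 10.55 to 11.19, HO 9.24 to 11.56 and STE5, the pathway's scaffold, 10.05 to 10.24. Over the 14 the median difference was 0.14, and 0 passed in limma's test, with 1 at an unadjusted p below 0.05. Of 16 genes of meiosis 0 passed, with 0 unadjusted, and the median was -0.01. Their median level lay between 6.71 and 6.85 on the 4 arrays. IME1, the master regulator of meiosis, read 7.94, 7.89, 7.96 and 7.77, and IME2, a meiotic kinase, had the largest difference of the 16, 0.55 ± 0.26. RED1, of the meiotic chromosome axis and the brightest of the list, differed by 0.07 ± 0.19. Each culture thus read the haploid genes at a high level and 1 of the pair a1 and α1 below background.

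Apart from the mating genes, most genes did not move in the same direction in the 2 pairs. Across 5449 genes 38.2% had the same sign in both genotypes, 1160 higher in replicate 2 and 920 lower. Some lists leaned upward in both pairs. Of 39 iron and copper genes, 23 were higher in both and 1 was lower in both. Of 21 genes for non-fermentable carbon sources the counts were 14 and 0. By the single-culture rule, wild type replicate 2 alone was higher for 14 genes (0.255%) and lower for 8 (0.146%), and dis3E729K replicate 2 alone was higher for 24 (0.437%) and lower for 1 (0.0182%). Wild type replicate 1 stood alone for 2 higher and 2 lower (0.0364% each), and dis3E729K replicate 1 for 0 higher and 1 lower (0.0182%). These are descriptions without a test, since a single culture has no replicate.

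In wild type replicate 2 the genes with the largest gaps after MET17 were YOR387C, VEL1 and ZPS1, known targets of the zinc-responsive activator Zap1. YOR387C read 5.67 in wild type replicate 1, 11.20 in wild type replicate 2, 5.48 in dis3E729K replicate 1 and 5.29 in dis3E729K replicate 2. VEL1, its close relative, read 5.55, 10.45, 5.32 and 4.83. ZPS1, a surface protein made when zinc is low, read 10.95, 13.41, 10.91 and 11.22, and ADH4, an alcohol dehydrogenase that is also a Zap1 target and ranked lower by its gap, read 10.74, 12.44, 10.63 and 10.82. In each case 3 arrays agree within 0.8 log2 units and wild type replicate 2 lies at least 1.6 above them. Of 16 genes listed for zinc, 5 differed by 1 log2 unit or more in the wild type pair, all upward, and 0 in the dis3E729K pair, with medians of 0.54 and -0.09. Against that, 3.75% of probe sets passed 1 log2 unit in either direction in the wild type pair and 3.46% in the dis3E729K pair. Upward in the wild type pair it was 83 of all 5449 genes. The zinc list holds YOR387C, named above for its gap, and was chosen with earlier results known. Its count is therefore a description and not separate support. ZRT1, the high-affinity zinc transporter, read 12.79, 13.66, 12.64 and 13.00.

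Other genes high in wild type replicate 2 alone came from no single list. AQY2, an aquaporin gene, read 7.43, 9.56, 7.36 and 7.08 in wild type replicates 1 and 2 and dis3E729K replicates 1 and 2, and YLL053C, next to it by locus tag (AQY2 is YLL052C), read 9.37, 11.17, 8.79 and 8.48. RPS9A, a ribosomal protein gene, read 9.94, 11.96, 9.90 and 9.19. Genes of sulfur and methionine metabolism other than MET17 showed no such gap: over 40 genes, MET17 among them, the median was 0.00 in the wild type pair and 0.08 in the mutant pair. MET13 and SAM1, of methionine and S-adenosylmethionine synthesis, had replicate differences of -1.10 and -0.95 in wild type and of 0.16 and -0.19 in the mutant.

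In dis3E729K replicate 2 the 24 higher genes came from no single list. SPG4 read 8.19, 6.98, 8.53 and 11.83 in wild type replicates 1 and 2 and dis3E729K replicates 1 and 2, and SPG1 read 6.74, 6.21, 6.83 and 9.48. Both genes are needed for survival at high temperature in stationary phase. RCK1, a kinase of the oxidative stress response, read 7.27, 6.39, 7.19 and 10.09. GDB1, the glycogen debranching enzyme, read 9.99, 10.16, 10.41 and 12.13. CSR2, YLR012C and PHO89, a phosphate transporter, completed the 6 largest gaps, at 2.38, 2.09 and 1.89 log2 units. Genes for non-fermentable carbon sources, 21 in number, had a median difference of 1.13 in the mutant pair and 0.16 in the wild type pair. Their median level was 8.04, 7.82, 9.61 and 10.83 in the same order, so dis3E729K replicate 1 also lay above both wild type arrays. In limma's comparison of dis3E729K with wild type, 9 of the 21 were higher in the mutant, against 7.64% of all probe sets. In limma's test of replicate 2 against replicate 1, 0 of them passed. At an unadjusted p below 0.05 there 7 were higher, where 1.73% of all probe sets were. The only gene low in dis3E729K replicate 2 alone was SER2, of serine synthesis, at 10.30, 10.38, 10.10 and 9.07.

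The replicate 1 cultures stood apart for 5 genes. PMA2, a plasma membrane proton pump, was high in wild type replicate 1, at 10.13, where the other arrays read 7.76 to 8.20, and ANS1 read 5.81 there and 3.63 to 4.32 elsewhere. YOL014W and YIR042C were lower in wild type replicate 1, by gaps of 1.35 each. FRE1, a metal reductase, was low in dis3E729K replicate 1, at 8.08, with 9.09 to 9.40 elsewhere.

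**Figure D4:**
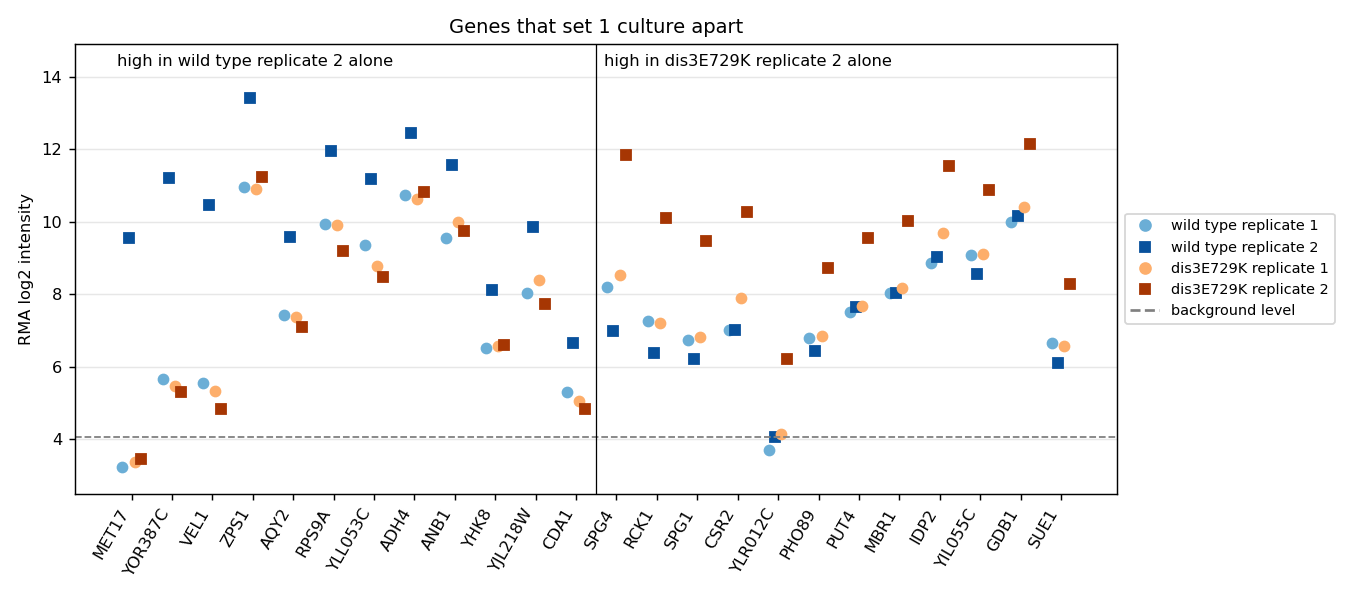
RMA log2 intensity (vertical axis) on each of the 4 arrays of the 12 genes with the largest gap above the other arrays in wild type replicate 2 (left) and in dis3E729K replicate 2 (right), with the background level dashed. MET17 lies at 9.55 in wild type replicate 2 with the other 3 points below background, and SPG4 lies at 11.83 in dis3E729K replicate 2 against 6.98 to 8.53.

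Of the 8 genes low in wild type replicate 2 alone, 6 lie on chromosome II, which holds 387 of all 5449 genes. These 6 are GPX2, a glutathione peroxidase, DER1, which acts in degradation of endoplasmic reticulum proteins, YRO2, OPY1, FMP23 and AKL1. This count led to a comparison of chromosomes, made after the values were seen. The 387 genes of chromosome II had a median of -0.72 in the wild type pair, with quartiles of -0.89 and -0.52, while the other chromosomes had medians of 0.03 to 0.08. In the dis3E729K pair the median of chromosome II was 0.01, beside -0.04 elsewhere. Wild type replicate 2 was the lowest of the 4 arrays for 303 of the 387 genes (78.3%), against 987 of 5062 genes on other chromosomes (19.5%). A fall of at least 0.5 log2 units in the wild type pair was seen for 296 genes (76.5%) and for 174 elsewhere (3.44%).

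The shift ran along nearly the whole of chromosome II. In gene order, each of 10 consecutive blocks had a wild type median between -0.64 and -0.77, and medians between -0.13 and 0.11 in the mutant pair. PKC1, the kinase of the cell wall integrity pathway, read 11.25 in wild type replicate 1, 10.64 in wild type replicate 2, 11.28 in dis3E729K replicate 1 and 11.18 in dis3E729K replicate 2, and BEM1, a polarity scaffold, read 10.63, 9.70, 10.76 and 10.82. At the ends, YBL113C, YBL112C, YBL111C and PAU9, whose probe sets are marked for cross-hybridisation, read 0.20 to 0.50 higher in wild type replicate 2 than in replicate 1, and COS2 read 0.12 lower. LYS2 on chromosome II differed by -0.03 and FUS3 by 0.28 in the wild type pair. All of these were picked with their values known. Over the chromosome, wild type replicate 2 minus dis3E729K replicate 1 and 2 gave medians of -0.62 and -0.60, while dis3E729K replicate 1 and 2 minus wild type replicate 1 gave -0.03 and -0.05. The arrays measured RNA alone, so copy number of chromosome II was not tested.

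**Figure D5:**
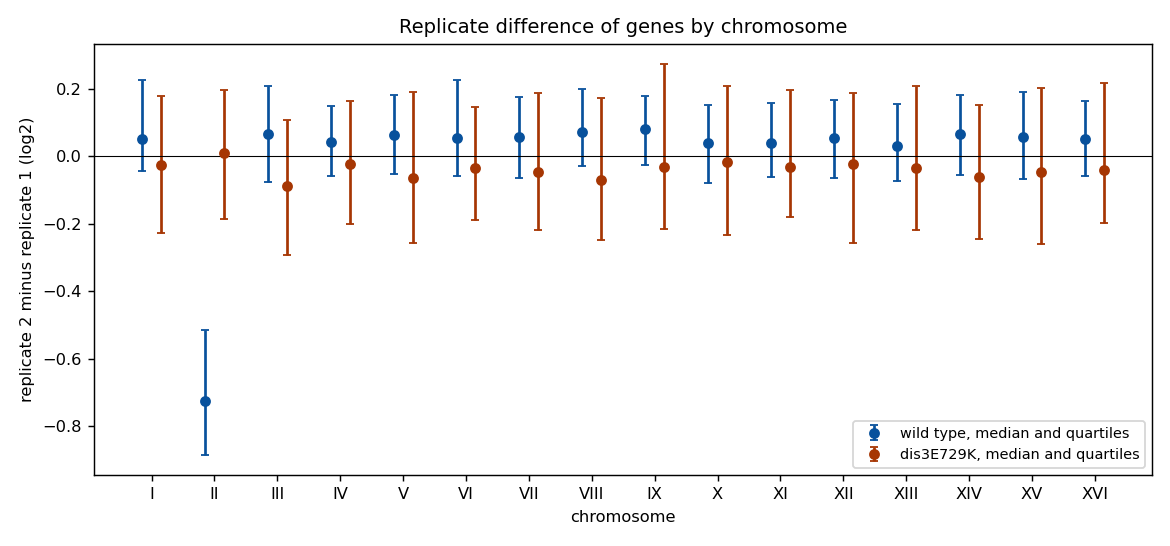
Median replicate difference (vertical axis, replicate 2 minus replicate 1, log2) of the genes of each chromosome (horizontal axis) in the wild type pair (blue) and the dis3E729K pair (brown), with bars from the lower to the upper quartile. Chromosome II in the wild type pair lies at -0.72, and all other medians of that pair lie between 0.03 and 0.08.

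Chromosome II held many of the genes with small p-values. Of the 44 genes lower in replicate 2 at an unadjusted p below 0.05 in limma's test, 30 lie on chromosome II. The chromosome holds 387 of all 5449 genes. None of the 21 genes that followed replicate number lies on it, but 21 genes are too few to set against that share. With chromosome II left out of the fit, an alternative added after seeing the data, 6 genes were higher and 7 lower, the 11 above with BAR1 and PRM1. In limma's comparison of dis3E729K with wild type, 420 probe sets were higher (7.64%) and 447 lower (8.13%) in the mutant. There chromosome II had a median of 0.25 where the other chromosomes had -0.10, made up of -0.03 in the replicate 1 pair and 0.60 in the replicate 2 pair. Of its 387 genes 15 were higher in the mutant (3.88%) and 0 were lower in limma's test, against 404 (7.98%) and 444 (8.77%) of 5062 genes elsewhere.

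A last group moved in opposite directions in the 2 genotypes. Of 46 stress response genes, 39 were lower in wild type replicate 2 and higher in dis3E729K replicate 2 than in the replicate 1 array of the same genotype, as were 23.9% of all genes. In limma's comparison of dis3E729K with wild type, 20 of the 46 were higher in the mutant and 0 were lower. Of all probe sets 7.64% and 8.13% were. The median level of the 46 was 10.78 in wild type replicate 1, 10.28 in wild type replicate 2, 12.06 in dis3E729K replicate 1 and 13.05 in dis3E729K replicate 2. HSP12, a membrane-protecting stress protein named after its values were seen, read 13.62, 11.70, 11.21 and 14.04 in that order, and DDR2, another stress gene, read 12.72, 9.83, 12.38 and 13.56. Unlike the list median, both read lower in dis3E729K replicate 1 than in wild type replicate 1. Of 41 ribosome biogenesis genes, 39 were higher in wild type replicate 2 and lower in dis3E729K replicate 2, as were 37.9% of all genes. Their medians were 0.12 in the wild type pair and -0.53 in the mutant pair. In all, 48 genes (0.881%) differed by at least 1 log2 unit in opposite directions, 43 of them (0.789%) lower in wild type replicate 2 and higher in dis3E729K replicate 2. The labels give no optical density for single cultures, and the part of density in these differences was not tested.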

How the data were processed

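Per the submitters' processing notes, the deposited log2 intensities were made by the authors with RMA, Affymetrix Expression Console and Transcriptome Analysis Console (versions not given). The table holds 10928 probe sets and 0 missing values. The platform annotation and RefSeq names (R64) gave a single S. cerevisiae gene for 5498 probe sets (5449 genes); not tested were 1746 of another species, 213 controls, 3470 without a gene here and 1 with several. Of those tested, 128 are marked for cross-hybridisation. Values listed by gene use the probe set with the highest mean. No genome build is named, so no coordinates are given.

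Replicate 2 was compared with replicate 1 in limma 3.58.1 (R 4.3.3), with genotype as a block, default prior (1 residual and 3.45 prior degrees of freedom) and Benjamini-Hochberg adjustment over 5498 probe sets. Differences are log2 ± moderated SE, n = 2 arrays on each side, and their small number limits precision. The spread behind the p-values is the disagreement between the wild type and dis3E729K replicate differences, moderated by the prior. No culture was repeated within a genotype and replicate number, so the p-values do not measure spread between repeated cultures. The procedure was run on simulated data with independent noise for each probe set and array. Those data hold no shift shared by many genes of an array, such as that of chromosome II, so they do not check the fit for it. Python 3.11.15 with pandas 2.3.3 made the tables.

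The genes and lists were chosen with earlier results of these data known. Named genes were all measured members of the a-specific, α-specific, mating type loci and marker lists, the 12 genes most higher and lower in both pairs, the 6 largest gaps each way per culture, and up to 6 members of each other list by absolute difference, with the brightest meiotic gene. KAR3, STE4, STE5, STE12, MCM1, IME1, HSP12, PKC1, AKL1, YLL053C, YGR109W-B, YMR206W, CSM4, HXT5, SIP18, GRE1, SPS100 and genes at the ends of chromosome II were picked with values known. Alternatives were no genotype block, a trend or robust prior, other probe set choices, normalizations and thresholds, and each array left out.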

Additional observations from a re-analysis of the deposited data

Results flagged for a closer look

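Several replicate differences ran in opposite directions in the wild type and dis3E729K pairs; each pair is 1 array against 1 array, and the difference between the pairs was not tested. The stress response list had a median of -0.58 in the wild type pair and 0.72 in the dis3E729K pair. The ribosome biogenesis list had medians of 0.12 and -0.53. Differences of at least 1 log2 unit in opposite directions were found for 48 genes. HXT5, a hexose transporter of slow-growing cells, differed by -4.17 and 3.51. SIP18, a desiccation protein, differed by -3.30 and 3.30. GRE1, which is induced by osmotic stress, differed by -3.04 and 2.68. SPS100, a spore wall gene, differed by -4.23 and 2.42.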

How the results depend on the processing

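Dropping the genotype block lost 6 of the 11 calls (AFB1, AGA2, SAG1, STE3, STE6 and YNL146C-A), leaving 2 higher and 3 lower; the cause was not tested. With 1 array left out and the block dropped, 0 to 4 genes were higher and 0 to 2 lower. In the other fits with all 4 arrays and the block, 10 of the 11 stayed called wherever their probe set was in the fit, and AGA2 was lost with the robust prior. For dis3E729K against wild type, 203 were higher and 147 lower with replicate number as a block; leaving out an array gave 0 to 312 higher and 0 to 350 lower, 0 of each without dis3E729K replicate 2 (at an unadjusted p below 0.05, 696 and 875), 202 and 103 without wild type replicate 1, 63 and 17 without wild type replicate 2, and without chromosome II 534 and 638. The replicate numbers were not shown to pair the cultures: the wild type and mutant replicate differences correlated across genes at r = 0.08, and at -0.32 without the 21 genes that followed replicate number. At 0.5 log2 units 36 genes followed upward and 16 downward. With a gap of at least 2 log2 units the single-culture counts were 0 (wild type replicate 1), 7 (wild type replicate 2), 0 (dis3E729K replicate 1) and 5 (dis3E729K replicate 2); with a gap over 1 times the range they were 10, 47, 2 and 69. The α-specific median was 4.80 in the dis3E729K pair, and the pheromone-induced median 0.36 in the wild type pair. Signal near the background level limits HMRA1, HMLALPHA1 and MET17 to bounds and lowers COS12 to below 1 log2 unit in the mutant pair.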

Other observations

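Iron and copper uptake genes leaned upward in replicate 2. In limma's test 0 of 39 passed and 5 were higher at an unadjusted p below 0.05, against 1.73% of all probe sets; the replicate 2 arrays lay above both replicate 1 arrays for 14 of 39, against 6.48% of all probe sets, and the median was 0.19. FET3, the multicopper oxidase of iron uptake, read 10.52 in wild type replicate 1, 11.90 in wild type replicate 2, 9.75 in dis3E729K replicate 1 and 10.24 in dis3E729K replicate 2. FIT3, a cell wall mannoprotein of siderophore iron uptake, read 10.34, 11.44, 10.45 and 10.91, and FRE2, a ferric reductase, read 7.58, 8.35, 7.32 and 7.86. Among 24 hexose and maltose transport and glucose repression genes, 0 passed limma's test; at an unadjusted p below 0.05, 5 were higher and 1 was lower, against 1.73% and 0.8% of all probe sets (median 0.18). HXT2, a high-affinity glucose transporter, read 10.38, 12.24, 12.73 and 13.34, and MAL11, a maltose transporter, read 7.02, 7.83, 9.87 and 10.68. MIG2, a repressor active in high glucose, read 10.43, 9.63, 11.29 and 10.53. CWP1, a cell wall mannoprotein, read 10.84, 11.85, 10.95 and 11.87, a difference of 1.00 in the wild type pair and 0.92 in the mutant pair.

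Other lists had medians between -0.16 and 0.07, beside -0.01 over all genes: 0.07 for 30 cell wall genes, 0.01 for 19 phosphate genes, 0.01 for 18 thiamine and vitamin genes, 0.06 for 27 M/G1 genes, -0.11 for 10 lysine genes, -0.11 for 14 uracil genes, -0.04 for 20 leucine and histidine genes and -0.16 for 26 G1/S genes. In limma's test 0 of their genes passed. At an unadjusted p below 0.05 these lists held 4 higher and 2 lower genes, where 1.73% and 0.8% of all probe sets were. Both lower genes were in the G1/S list. In that list 14 of 26 genes were lower in replicate 2 in both pairs and 1 was higher in both. Over all 5449 genes the counts were 920 and 1160. Lists of mitochondrially encoded and 2-micron plasmid genes had 0 measured members. Among 3470 probe sets with no gene here and 1746 of the other species, 0 followed replicate number and 0 set a single culture apart.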
